A study of Caenorhabditis elegans with 57 samples.

Results

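H3K27me3, the repressive trimethyl mark that Polycomb Repressive Complex 2 (PRC2) places on histone H3, was measured by CUT&RUN in germlines of *C. elegans* hermaphrodites from the second of the study's crosses. CUT&RUN uses an antibody to tether a nuclease that releases the DNA under a mark. The libraries were chosen by their labels and numbered 4 of the 57 samples of the series: 2 of M+P- worms and 2 of M+P+ worms. M+P- worms had fathers homozygous for *mes-3*(bn199), and the M+P+ fathers carried *mes-3*(bn199) over the balancer hT2-GFP. Per the labels, offspring of both kinds had the same genotype. They were *mes-3*(bn199)/+, carried a *glh-1* allele (sams24) tagged with GFP and 3xflag, and carried the temperature-sensitive allele *fem-2*(b245ts), which both kinds of father and the mothers carried too. The mothers had the background CB4856, a Hawaiian strain, and the sperm genome was of the Bristol strain N2. Per the labels' protocols, strains with *fem-2* were kept at 15 °C and raised at 25 °C to obtain females, other strains were kept at 20 °C, worms were picked as L4 larvae and kept at 20 °C to day 1 of adulthood, and gonads were cut at the bend to take the distal part. The question of the comparison, per the design text, was whether a sperm genome that arrives without H3K27me3 still differs from the oocyte genome in the germline of the offspring.

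In the worm, PRC2 consists of the methyltransferase MES-2 and its partners MES-3 and MES-6. Its mark keeps genes of somatic tissues silent in germ cells, and it covers the X chromosome, which is largely silent in the germline of hermaphrodites. H3K36me3, placed by MES-4 and MET-1, marks genes that are or were active in germ cells and lies mostly on the autosomes. Nucleosomes with H3K27me3 can be passed through sperm and copied through cell division, so the mark is a known carrier of chromatin states from fathers to offspring. Because oocyte and sperm genomes came from strains with many sequence differences, reads over such a difference were counted by the authors for the oocyte or the sperm allele.

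Total counts were 15941251 and 15931423 in M+P- libraries, against 16017760 and 10311833 in M+P+ libraries. Allele reads numbered 1176551 and 1213755 in M+P- libraries, against 1189046 and 803306 in M+P+ libraries. Libraries of a group differed by more than counting noise (chi-square per gene 13.0 for M+P- and 5.74 for M+P+), so each counted as 1 sample. With 2 samples a group, an exact permutation test can give no two-sided p below 0.333, and p-values measure the spread between libraries, which the labels tie to no parents or days. In the RNA of the same groups the summed level of 5 germline markers lay between 3700 and 4370 CPM (counts scaled to the same library size) in all 6 libraries, carried by *glh-1* and *gld-1*. The other 3 were far lower in M+P- replicate 3, where *pgl-1* had 123 CPM, against 771 to 899 in the other libraries, *him-3* had 24.0 against 144 to 170, and *syp-1* had 0 against 65.9 to 74.2. Of the markers of other tissues, epidermal ones summed to 104 to 137 CPM, nearly all from *lin-26*, with *dpy-7* at 0. Muscle ones summed to 10.7 to 33.0 CPM, from *unc-54* and *unc-15*, with *hlh-1* at 0. Neuronal ones summed to 30.0 CPM in M+P- replicate 3, against 168 to 192 CPM in the other libraries, mostly from *snb-1*. Sperm markers summed to 8.5 CPM in M+P- replicate 3, against 37.6 to 46.0 CPM. Oocyte markers summed to 2050 CPM there, against 4080 to 4320 CPM. Intestinal and somatic gonad markers are given with the RNA below.

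The library labelled M+P+ replicate 1 stood apart from the others in how the sperm allele was distributed along chromosomes. Each chromosome was divided into 10 segments with equal numbers of genes, and the sperm-allele share of each segment was set against the mean of the M+P+ libraries of the first cross. The deviations in M+P+ replicate 1 spanned a median of 9.88 percentage points within a chromosome, and 5.81 to 13.1 over the 6 chromosomes. The median span was 5.56 points in M+P- replicate 1 (4.00 to 12.3), 4.47 in M+P- replicate 2 (2.82 to 8.28) and 3.58 in M+P+ replicate 2 (2.28 to 4.87). It was 15.0 and 12.8 points in the 2 libraries of F2 grandoffspring (GM+GP-). On I alone the span was wider in M+P- replicate 1 (12.3 points) than in M+P+ replicate 1 (10.3 points). On the X, M+P+ replicate 1 declined along the chromosome, with a sperm share of 54.7% in the first segment and 40.4% in the last, while the last segment had 51.8% and 50.8% in M+P- replicates 1 and 2 and 52.3% in M+P+ replicate 2. On IV its share stepped up to 59.0% in segment 7 and stayed near that level to the end of the chromosome, where M+P+ replicate 2 had 50.0%. In H3K36me3 the library labelled M+P+ replicate 1 had a median span of 5.12 points, within the range of 4.18 to 8.62 points of all 4 H3K36me3 libraries. Counts of genes and segments below are therefore given also against M+P+ replicate 2 alone.

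The sperm allele carried a smaller part of the H3K27me3 reads in M+P- germlines. On the autosomes the sperm share was 45.6% and 48.5% in M+P- libraries, against 51.0% and 51.8% in M+P+ libraries. Both M+P- libraries lay below both M+P+ libraries, with means of 47.1% ± 2.03 and 51.4% ± 0.54 (SD, n = 2 each). The difference of -4.35 points exceeded the SD of either group and had an exact permutation p of 0.333 (two-sided), the smallest this design allows. Over all 6 chromosomes the share was 46.6% and 48.8% in M+P- libraries, against 50.3% and 51.7% in M+P+ libraries, a difference of -3.28 points. Reads were mapped to ce10, which is the Bristol genome, so shares are compared between libraries and not with an even split.

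The autosomes were not alike. Chromosome IV differed most, with 43.1% and 46.5% in M+P- libraries, against 55.3% and 50.3% in M+P+ libraries. The higher of its M+P+ values was that of the library that stood apart, and the difference was -8.03 points. On chromosome I the sperm share was 42.5% and 45.8% in M+P- libraries, against 49.6% and 49.3% in M+P+ libraries, a difference of -5.26 points with an M+P+ SD of 0.23. On II it was 46.1% and 49.3% in M+P- libraries, against 52.3% and 52.6% in M+P+ libraries. On I, II and IV the groups did not overlap. On III the values were 44% and 46.7% in M+P- libraries, against 46.2% and 50.5% in M+P+ libraries. On V they were 48.4% and 51.1% in M+P- libraries, against 50.5% and 53.8% in M+P+ libraries. On both III and V the groups overlapped through M+P+ replicate 1, and both M+P- libraries lay below M+P+ replicate 2.

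On the X chromosome the groups overlapped too, again through M+P+ replicate 1. Its sperm allele held 50.9% and 50.7% of X-linked reads in M+P- libraries, against 46.2% and 51.4% in M+P+ libraries. M+P- libraries agreed within 0.25 points, and only the library that stood apart was lower. Both M+P- libraries lay below M+P+ replicate 2, as on III and V, but close to it. The X share minus the autosomal share was 5.29 and 2.17 points in M+P- libraries, against -4.83 and -0.36 points in M+P+ libraries. Both M+P- values were above both M+P+ values (exact p = 0.333, n = 2 each).

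**Figure D1:**
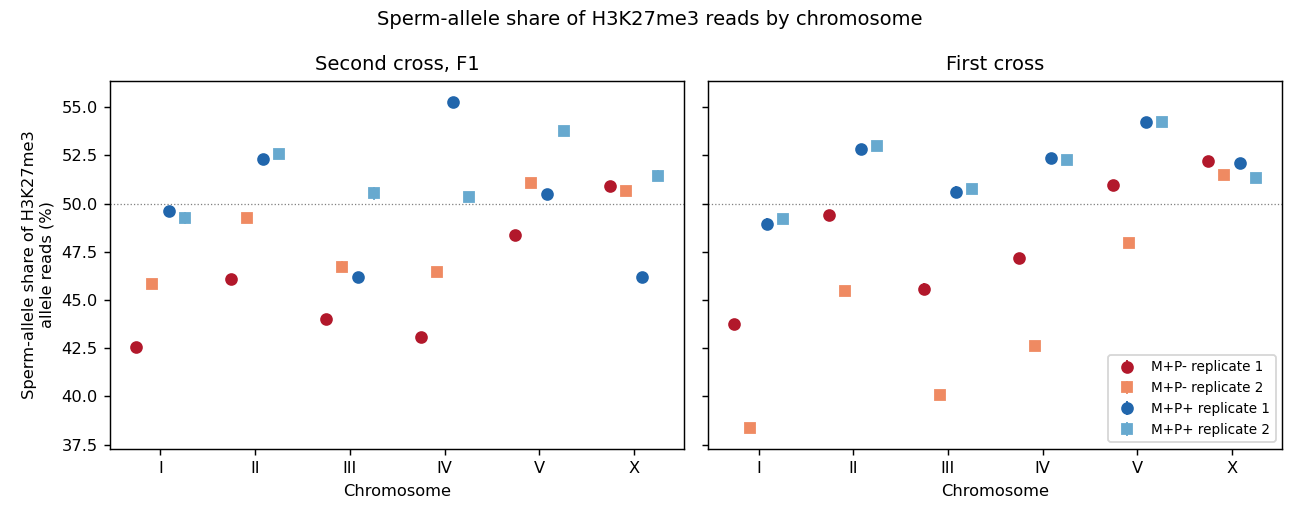
Share of H3K27me3 allele reads on the sperm allele (%), by chromosome, in the second cross (left) and the first cross (right); each point is 1 library, with its 95% Wilson interval mostly hidden by the symbol. On I, II and IV both M+P- libraries of the second cross lie below both M+P+ libraries. On the X, M+P+ replicate 1 of the second cross lies below all other libraries.

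The first cross, which used *mes-3*(bn35) and other worms, gave the same order on the autosomes. There the sperm share was 48.4% and 44.5% in M+P- libraries, against 52.5% and 52.6% in M+P+ libraries. On the X of that cross it was 52.2% and 51.5% in M+P- libraries, against 52.1% and 51.3% in M+P+ libraries. With libraries permuted within each cross, the autosomal difference over both crosses was -5.24 points (exact p = 0.0556, n = 4 each), the smallest p possible over 36 permutations. Without second-cross M+P+ replicate 1 it was -5.55 points (exact p = 0.0556, n = 4 and 3). The X difference was 1.05 points with all libraries (exact p = 0.667, n = 4 each) and -0.31 without that replicate (exact p = 0.5). The combined test was chosen with the data in view. H3K36me3 ran the other way in the second cross, with autosomal sperm shares of 58.4% and 57.6% in M+P- libraries, against 55.1% and 54.7% in M+P+ libraries, a difference of 3.1 points (exact p = 0.333).

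Per 1000 total counts, the alleles of the autosomes differed in opposite directions. M+P- libraries had 27.1 and 30.7 autosomal sperm-allele reads per 1000 counts, against 31.4 and 33.5 in M+P+ libraries. Oocyte-allele reads numbered 32.3 and 32.6 per 1000 counts in M+P- libraries, against 30.1 and 31.2 in M+P+ libraries. Neither allele overlapped between groups, and the oocyte allele was the higher of the pair in both M+P- libraries and the lower in both M+P+ libraries. These are relative amounts, since CUT&RUN counts hold no measure of the total mark per cell.

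Along the autosomes both M+P- libraries were below both M+P+ libraries in 33 of 50 segments, and below M+P+ replicate 2, the comparison chosen once replicate 1 was seen to stand apart, in 50 of 50. The M+P- mean was above the M+P+ mean in segments 9 and 10 of III, by 0.25 and 0.31 points. Being below both held for 10 of 10 segments on IV, 9 of 10 on I, 8 of 10 on II and 3 of 10 on each of III and V. On the X, M+P- libraries were below M+P+ replicate 2 in 8 of 10 segments, by differences of at most 1.93 points, and below both in 1 of 10. The widest autosomal gap to M+P+ replicate 2 was -11.1 points in segment 4 of chromosome I, where the share was 37.5% and 42.9% in M+P- libraries, against 49.3% and 51.3% in M+P+ libraries. In segment 5 of chromosome III the share was 37.0% and 44.4% in M+P- libraries, against 42.3% and 51.1% in M+P+ libraries.

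Worm autosomes have gene-dense centres and arms richer in repeats and heterochromatin. M+P- replicate 1 had a sperm share of 47.2% in the autosomal arms (segments 1, 2, 9 and 10) and of 42.3% in the centres (segments 4 to 7). M+P- replicate 2 had 49.0% in arms and 47.6% in centres. The corresponding values were 52.1% and 48.6% in M+P+ replicate 1, and 52.4% and 50.8% in M+P+ replicate 2. Arms were above centres in all 4 libraries, and by most in M+P- replicate 1.

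**Figure D2:**
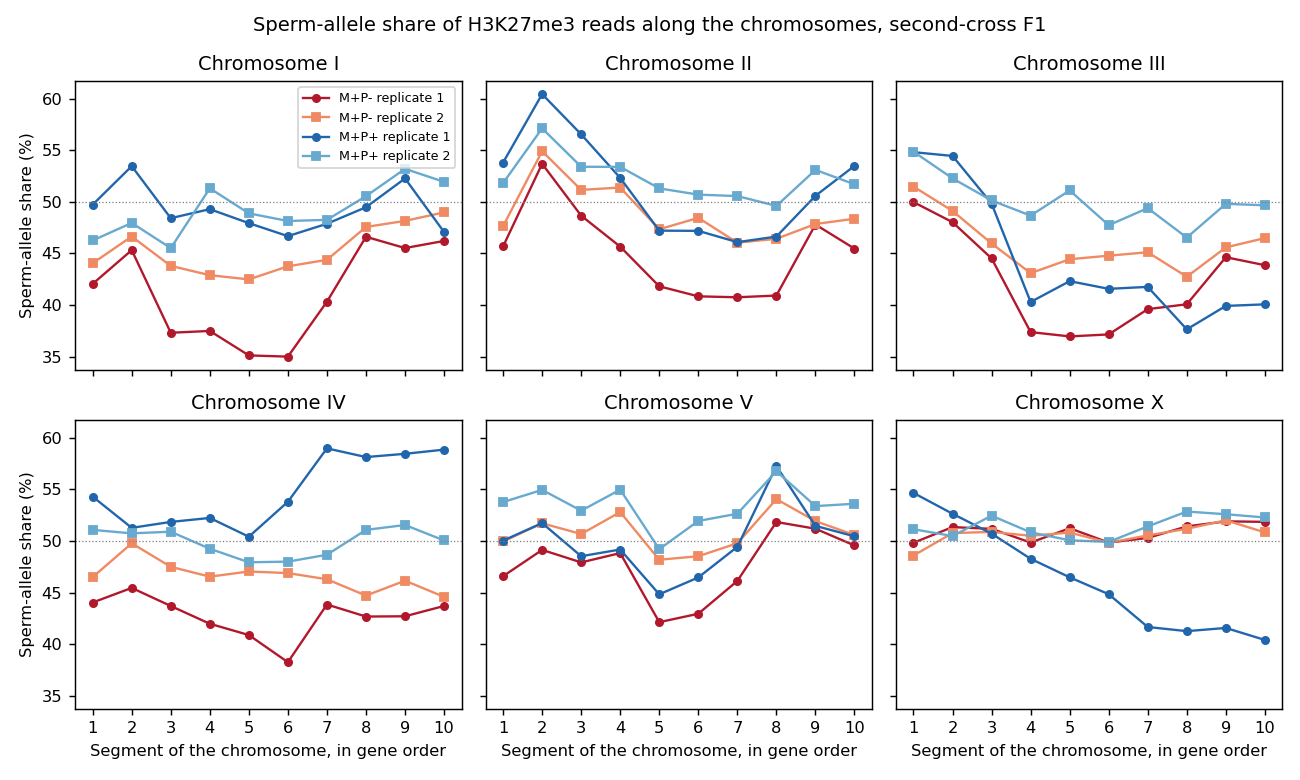
Sperm-allele share of H3K27me3 reads (%) in 10 segments of equal gene number along each chromosome, 1 line per library of the second cross. Both M+P- lines run below M+P+ replicate 2 in 50 of 50 autosomal segments, while M+P+ replicate 1 steps up on IV to 59.0% and declines on the X to 40.4%.

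The M+P- libraries differed from each other in which genes were low on the sperm allele. Autosomal genes were ordered by their H3K27me3 z-score in male germlines of the strain *him-8*, a source of males, and divided into 5 groups. From the lowest to the highest group, M+P- replicate 1 had sperm shares of 48.0%, 45.7%, 44.7%, 45.0% and 45.0%. M+P- replicate 2 had 46.1%, 46.9%, 49.2%, 49.7% and 49.4%. The M+P+ libraries varied less, from 49.9% to 52.1% in replicate 1 and from 51.0% to 52.5% in replicate 2. Genes high in the mark in males thus had the lower share in M+P- replicate 1 and the higher share in M+P- replicate 2, and no common order by the level in males can be given for the M+P- libraries.

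Gene by gene, the sperm-to-oocyte ratio differed between groups at 0 of 12392 genes (0%) past an adjusted p of 0.05 by edgeR's quasi-likelihood test with Benjamini-Hochberg adjustment. DESeq2 called 0 too. An unadjusted p under 0.05 was reached by 595 genes in edgeR and 293 in DESeq2. With M+P- replicate 2 left out, 174 genes were called lower and 28 higher, and with M+P- replicate 1 left out, 1 gene was called. With both crosses in 1 fit, an alternative chosen with the data in view, 13 genes were called lower, 8 of them on IV, and 0 without second-cross M+P+ replicate 1.

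In sperm share per gene, both M+P- libraries were below both M+P+ libraries at 2806 of 12346 genes (22.7%) and above both at 1406 (11.4%). On the autosomes the counts were 2560 (24.5%) below and 1052 (10.1%) above. Chromosome IV had 603 of 1860 genes below (32.4%) and 130 above (6.99%), and the X had 200 of 1687 below (11.9%) and 330 above (19.6%). Set against M+P+ replicate 2 alone, both M+P- libraries were below at 5243 genes (42.5%) and above at 2875 (23.3%). On the X the same counts were 590 (35.0%) and 511 (30.3%), so the higher number above on the X came from M+P+ replicate 1.

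The 6 genes of lowest unadjusted p with a lower sperm share, all named by a rule and none called, were *talp-3*, *sta-1*, *atln-2*, *egas-1*, *scrm-1* and *nspg-6*. At *sta-1*, a STAT-type transcription factor gene on IV, the sperm allele held 20.0% and 30.7% of allele reads in M+P- libraries, against 57.2% and 51.3% in M+P+ libraries, over 165 to 231 reads a library. At *talp-3*, also on IV, it held 32.3% and 35.9% in M+P- libraries, against 59.9% and 55.8% in M+P+ libraries. The sperm share of *talp-3* was thus lower in M+P- germlines, without a call (log2 ratio difference -1.41 ± 0.36 SE, adjusted p = 0.962 in edgeR). At *atln-2*, an atlastin gene of the endoplasmic reticulum, the share was 36.2% and 40.3% in M+P- libraries, against 57.0% and 50.8% in M+P+ libraries, over more than 1000 reads in each library. *egas-1*, for a channel subunit with EGF repeats, had 25.7% and 36.6% in M+P- libraries, against 50.0% and 47.2% in M+P+ libraries. *scrm-1*, a phospholipid scramblase gene on I, had the lowest sperm shares of the 6 in M+P- replicate 2, with 15.3% and 12% in M+P- libraries, against 50.9% and 65.8% in M+P+ libraries, on 38 to 59 reads. *nspg-6* on III, of a nematode-specific peptide family, had 0% and 18.2% in M+P- libraries, against 49.4% and 43.5% in M+P+ libraries, on 56 to 83 reads. The shares of these 6 genes did not overlap between groups, which the naming rule required.

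The 6 genes named for a higher sperm share were also not called, and 4 of them were X-linked: *nfki-1*, *lin-2*, *unc-3* and *tsp-8*. *unc-3*, the COE-type transcription factor of cholinergic motor neurons, had 57.8% and 48.6% in M+P- libraries, against 37.5% and 34.7% in M+P+ libraries. *lin-2*, which places the EGF receptor in vulval precursor cells, had 71.4% and 52.2% in M+P- libraries, against 33.3% and 44.7% in M+P+ libraries. *swm-1* on V, an inhibitor of sperm activation in males, had 59.4% and 65.8% in M+P- libraries, against 27.5% and 26.0% in M+P+ libraries. In the first cross the log2 ratio differences of these genes were 0.01 for *nfki-1*, 0.21 for *lin-2*, 0.18 for *unc-3*, 0.04 for *tsp-8*, -0.01 for *swm-1* and -0.51 for *srbc-18*. The last, a chemoreceptor entry annotated as a pseudogene, had the other sign here (2.14), as had *swm-1* (2.18).

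Total H3K27me3 per gene, both alleles and unassigned reads together, moved little. Of 29099 genes 0 (0%) passed an adjusted p of 0.05 in edgeR's quasi-likelihood test and 0 in DESeq2, and 615 and 365 had an unadjusted p under 0.05. Without M+P- replicate 2, edgeR called 150 genes lower and 30 higher, with 69 of the lower genes on IV, which held 8697 of the genes tested in that fit, 36 on I and 0 on the X, and 11 of the higher ones on the X. Without M+P- replicate 1 it called 2 genes, both higher. Leaving out either M+P+ library gave 0. A difference in the history effect between the crosses was called at 0 of 29308 genes (0%) by edgeR and at 0 by DESeq2, with 261 and 216 at an unadjusted p under 0.05.

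The X chromosome took 23.9% and 20.8% of placed H3K27me3 counts in M+P- libraries, against 21.1% and 20.9% in M+P+ libraries. The first of the M+P- values was the only one apart, and the M+P- range enclosed both M+P+ values. In the first cross the X took 25.1% and 25.5% in M+P- libraries, against 23.1% and 22.5% in M+P+ libraries, with no overlap. The median log2 fold change of X-linked genes in the second cross was 0.10, with 945 of 3931 genes below 0 (24.0%), beside -0.02 and 53.3% for autosomal genes. This X median rested on M+P- replicate 1: it was 0.21 when M+P- replicate 2 was left out, and -0.01 when M+P- replicate 1 was left out. The autosomal medians without M+P- replicate 2 were lowest on IV (-0.14), III (-0.12) and I (-0.11).

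**Figure D3:**
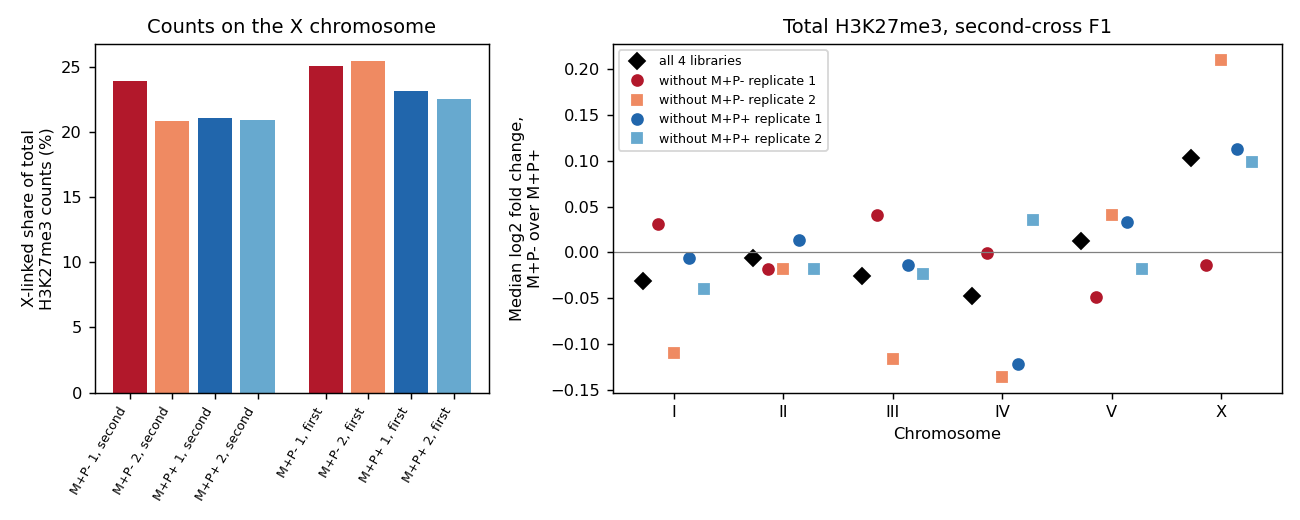
Left, X-linked share of placed H3K27me3 counts (%) in each library of the second and the first cross; right, median log2 fold change of total H3K27me3 (M+P- over M+P+) per chromosome with all 4 libraries and with each left out. The X median of 0.10 becomes -0.01 when M+P- replicate 1 is left out and 0.21 when M+P- replicate 2 is left out.

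Genes named for the lowest unadjusted p in total H3K27me3, none of them called, had modest differences. *hil-6*, a linker histone gene, had 4.25 and 5.95 CPM in M+P- libraries, against 10.5 and 9.46 CPM in M+P+ libraries (log2 fold change -0.97 ± 0.30 SE, adjusted p = 1 in edgeR). *irld-26*, of a family with insulin and EGF receptor L domains, had 6.72 and 15.5 CPM in M+P- libraries, against 18.9 and 21.1 CPM in M+P+ libraries. The M+P- values of *irld-26* lay far from each other, and both were below the M+P+ values. Its log2 fold change was -1.32 in the first cross, and that of *hil-6* -1.30. The other 4 named for lower totals were *syf-2*, *spg-20*, *endu-1* and the chemoreceptor gene *sru-26*, with -0.52 to -1.02. On the higher side *spe-15*, the myosin VI gene of spermatid budding, had 226 and 257 CPM in M+P- libraries, against 160 and 180 CPM in M+P+ libraries (0.51 ± 0.13, adjusted p = 1 in edgeR). The other 5 were *chkr-2* and the collagen gene *col-165* on the X, *pot-3*, *sea-2*, which sets sex by the autosome count, and the collagen gene *col-42*, with 0.48 to 0.70.

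Genes of the H3K27 and H3K36 methylation machinery were little changed in their own H3K27me3. *mes-2*, *mes-3*, *mes-6*, *mes-4* and *met-1* had log2 fold changes between -0.28 and 0.14, and 0 of 5 were called. *mes-3*, the gene mutated in the fathers, had 36.1 and 49.9 CPM in M+P- libraries, against 45.9 and 58.6 CPM in M+P+ libraries. Its groups overlapped, and with 1 mutant copy in every offspring its level is no check of the labels. The 4 genes for H3K27 demethylases (*jmjd-3.1*, *jmjd-3.2*, *jmjd-3.3* and *utx-1*) are X-linked and had fold changes of 0.02 to 0.11, against an X median of 0.10. *jmjd-3.2* had sperm shares of 54.1% and 51.9% in M+P- libraries, against 46.8% and 54.5% in M+P+ libraries.

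Among 6 Hox genes, which pattern the body axis and are classical targets of Polycomb, total H3K27me3 differed by -0.24 to 0.07 on the log2 scale and 0 were called. *mab-5* had 118.6 and 111.6 CPM in M+P- libraries, against 137.5 and 134.4 CPM in M+P+ libraries, the largest difference of the 6 (-0.24 ± 0.14 SE, adjusted p = 1 in edgeR). Its sperm share was 44.9% and 43.5% in M+P- libraries, against 48.4% and 53.0% in M+P+ libraries, without overlap. *lin-39* had 46.7% and 52.5% in M+P- libraries, against 50.6% and 57.7% in M+P+ libraries, with overlap.

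Lists of genes by tissue and family held 0 called genes for total H3K27me3 and 0 for the allele ratio in each of the 24 lists tested, so they are described by their summed sperm share. Over 15 neuronal genes with allele reads the sperm share was 38.5% and 45.0% in M+P- libraries, against 50.9% and 51.0% in M+P+ libraries. Both M+P- libraries were below both M+P+ libraries at 8 of these 15 genes (53.3%), beside 22.7% of all genes, and below M+P+ replicate 2 at the same number, beside 42.5% of all genes. Over 30 receptor guanylyl cyclase genes (*gcy*), which serve sensory neurons, the share was 43.1% and 44.2% in M+P- libraries, against 53.2% and 53.8% in M+P+ libraries, with 10 of 30 genes (33.3%) below both M+P+ libraries. Against M+P+ replicate 2 alone it was 13 of 30 (43.3%), beside 42.5% of all genes, so the count above the background rested on M+P+ replicate 1. Chemoreceptor genes, 1050 with allele reads, had 49.2% and 52.3% in M+P- libraries, against 52.3% and 54.1% in M+P+ libraries, and 20.9% of them were below both and 39.1% below replicate 2. Nuclear receptor genes had 48.2% and 50.7% in M+P- libraries, against 51.5% and 54.9% in M+P+ libraries, with 57 of 212 (26.9%) below both and 106 (50.0%) below replicate 2. Muscle genes overlapped between groups, with 43.0% and 49.0% in M+P- libraries, against 47.9% and 45.9% in M+P+ libraries, and 2 of 18 (11.1%) below both and 5 (27.8%) below replicate 2. Homeodomain genes had 46.3% and 46.5% in M+P- libraries, against 46.3% and 53.6% in M+P+ libraries, with 12 of 31 (38.7%) below both and 20 (64.5%) below replicate 2. Collagen, C-type lectin, F-box, neuropeptide and ion channel genes had 17% to 22.4% of their genes below both M+P+ libraries, beside 22.7% of all genes, and 34% to 44.9% below replicate 2. The 30 genes listed because their RNA was higher in M+P- germlines of the first cross had 41.5% and 45.6% in M+P- libraries, against 50.3% and 49.2% in M+P+ libraries, with 8 of 23 (34.8%) below both and 14 (60.9%) below replicate 2. Core germline genes, such as those of P granules and meiosis, had 49.0% and 39.0% in M+P- libraries, against 51.3% and 52.1% in M+P+ libraries, with 10 of 28 (35.7%) below both and 14 (50.0%) below replicate 2. The remaining lists (sperm, oocyte, intestine, epidermis, somatic gonad, other somatic transcription factors, ribosomal proteins) had 5 to 20 genes with allele reads each, with 1 in 10 to 3 in 8 of them below both M+P+ libraries and 33.3% (epidermis) to 80.0% (8 of 10 oocyte genes) below replicate 2, and major sperm protein genes had no allele reads. At the loci of the crosses (*mes-3*, *glh-1*, *fem-2*, *him-8*) allele reads numbered 3 to 46 a gene and library, too few to compare.

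Genes whose H3K27me3 fell on the sperm allele in the first cross had a lower sperm share in M+P- than in M+P+ libraries here too. In the first cross, 150 of 11778 genes (1.27%) had a lower sperm-to-oocyte ratio in M+P- germlines past the threshold in edgeR and 2 (0.017%) a higher one, in libraries that share no sample with the second cross. Summed over these 150 genes, the sperm share in the second cross was 36.8% and 42.2% in M+P- libraries, against 48.4% and 47.4% in M+P+ libraries. These M+P+ values were themselves below the autosomal shares of 51.0% and 51.8% in the same M+P+ libraries. In the first cross the share of the 150 genes was 35.7% and 27.9% in M+P- libraries, against 52.6% and 53.0% in M+P+ libraries. In the second cross both M+P- libraries were below both M+P+ libraries at 64 of the 150 genes (42.7%), beside 24.5% of autosomal genes, and above at 4 (2.67%). Against M+P+ replicate 2 alone they were below at 91 (60.7%), beside 43.8% of autosomal genes. The autosomal background was not matched for depth. In M+P- replicate 1 the 150 genes held 32765 allele reads, against 946794 on the autosomes, where 10432 genes were compared. Whether depth raised the counts of genes below was not tested. Of the 150 genes 36 lay on IV, 34 on V, 30 on I, 24 on III, 21 on II and 1 on the X, and the others were not placed.

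Single genes among the 12 of lowest p in that set differed in how far the second cross followed. *glb-29*, a globin gene, had sperm shares of 28.0% and 28.9% in M+P- libraries, against 42.7% and 43.5% in M+P+ libraries, and its total H3K27me3 differed by 0.06 on the log2 scale. *tra-3*, the calpain of sex determination, had 32.3% and 36.7% in M+P- libraries, against 56.8% and 43.97% in M+P+ libraries. *cle-1*, for a collagen of basement membranes, had 32.6% and 42.9% in M+P- libraries, against 47.7% and 50.0% in M+P+ libraries. These 3 genes kept apart by group in both crosses. *grdn-1*, a girdin gene with over 1000 allele reads in each library, had 42.4% and 44.2% in M+P- libraries, against 41.7% and 42.7% in M+P+ libraries, beside a log2 ratio difference of -1.09 in the first cross. *hxk-1*, for hexokinase, likewise had 38.7% and 43.3% in M+P- libraries, against 42.2% and 38.1% in M+P+ libraries.

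**Figure D4:**
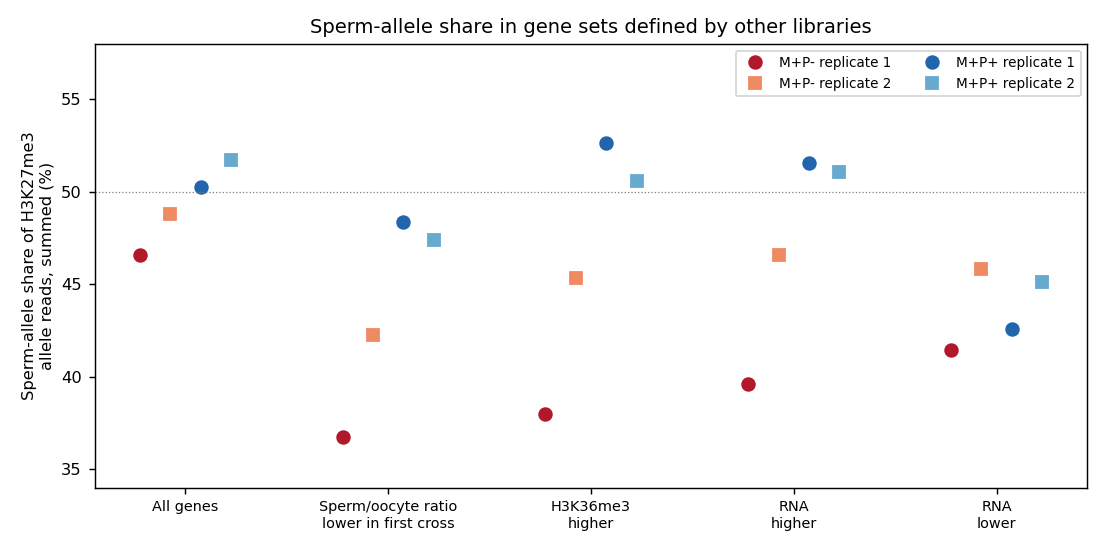
Sperm-allele share of H3K27me3 reads (%), summed over all genes and over 4 gene sets defined by other libraries; each point is 1 library of the second cross. In the first 3 sets both M+P- libraries lie below both M+P+ libraries, and in the set with lower RNA the groups overlap.

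H3K36me3 from germlines of the same groups gave calls, all in 1 direction with all libraries in edgeR. In edgeR's quasi-likelihood test 29 of 24018 genes (0.121%) rose in M+P- germlines and 0 fell. Of these 29 genes, 12 were on IV, 12 on V, 4 on II, 1 on I and 0 on the X. Leaving out M+P- replicate 1 gave 8 calls and leaving out M+P- replicate 2 gave 90, while leaving out M+P+ replicate 1 gave 12 and leaving out M+P+ replicate 2 gave 267. DESeq2 called 112 higher and 6 lower. Total H3K27me3 was below 0 on the log2 scale at 28 of the 29 genes (96.6%, median -0.19), beside 53.3% of autosomal genes, and none of the 29 was called for H3K27me3. Their summed H3K27me3 sperm share, over 21 genes with allele reads, was 38.0% and 45.3% in M+P- libraries, against 52.6% and 50.6% in M+P+ libraries. Both M+P- libraries were below both M+P+ libraries at 9 of the 21 (42.9%), beside 24.5% of autosomal genes, and above at 0. They were below M+P+ replicate 2 at 16 (76.2%), beside 43.8% of autosomal genes.

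The H3K36me3 of these genes had a higher sperm share in M+P- germlines than in M+P+ germlines. Summed over the set, the sperm allele held 83.8% and 75.4% of H3K36me3 allele reads in M+P- libraries, against 58.1% and 51.2% in M+P+ libraries. All genes together had 58.2% and 57.5% in M+P- libraries, against 55.0% and 54.5% in M+P+ libraries. At these genes the sperm share was thus lower for H3K27me3 and higher for H3K36me3 in M+P- libraries than in M+P+ libraries. The set was chosen by its total H3K36me3 in these same H3K36me3 libraries, so its H3K36me3 values are a description.

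*casy-1*, the calsyntenin gene of synapses, differed in both marks on II. Its total H3K27me3 was 181 and 176 CPM in M+P- libraries, against 238 and 206 CPM in M+P+ libraries (log2 fold change -0.31 ± 0.13 SE, adjusted p = 1 in edgeR). Its H3K27me3 sperm share was 17.4% and 41.1% in M+P- libraries, against 49.0% and 49.7% in M+P+ libraries. Its total H3K36me3 was 189 and 169 CPM in M+P- libraries, against 64.2 and 78.7 CPM in M+P+ libraries (1.32 ± 0.18, adjusted p = 0.00265 in edgeR). The sperm allele held 82.4% and 80.7% of its H3K36me3 allele reads in M+P- libraries, against 41.7% and 44.8% in M+P+ libraries. For *casy-1* no value overlapped between groups in any of these 4 measures.

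*cnnm-1*, a gene for a magnesium transporter of the cyclin M family on IV, had H3K27me3 sperm shares of 34.6% and 32.6% in M+P- libraries, against 50.6% and 43.0% in M+P+ libraries. Its H3K36me3 sperm shares were 87.5% and 75.4% in M+P- libraries, against 26.1% and 42.4% in M+P+ libraries. *alh-5*, an aldehyde dehydrogenase gene, had 32.2% and 25.8% of H3K27me3 allele reads on the sperm allele in M+P- libraries, against 56.3% and 42.9% in M+P+ libraries. Both genes were lower in total H3K27me3 as well (-0.31 ± 0.16 and -0.42 ± 0.16 SE), without a call. *talp-3* belonged to the same set, with 92.4 and 89.7 CPM of H3K36me3 in M+P- libraries, against 30.4 and 42.3 CPM in M+P+ libraries (1.32 ± 0.23, adjusted p = 0.0228 in edgeR). *sta-1* was not called for H3K36me3 (1.03 ± 0.26, adjusted p = 0.214 in edgeR), and had 92.2% and 79.3% of H3K36me3 allele reads on the sperm allele in M+P- libraries, against 23.3% and 36.7% in M+P+ libraries.

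Among the genes with more H3K36me3, some had close to equal H3K27me3 in both groups, in total or by allele. *ketn-1*, the kettin gene of muscle, had 446 and 366 CPM of H3K27me3 in M+P- libraries, against 421 and 356 CPM in M+P+ libraries (0.07 ± 0.13 SE, adjusted p = 1 in edgeR), and its sperm shares of 40.9% and 47.3% in M+P- libraries overlapped those of 56.4% and 41.9% in M+P+ libraries. In the first cross its total H3K27me3 differed by -0.57 and its allele ratio by -1.65 on the log2 scale. *egl-2*, a potassium channel gene of neurons and muscle, had 203 and 187 CPM in M+P- libraries, against 201 and 194 CPM in M+P+ libraries (-0.02 ± 0.13 SE, adjusted p = 1 in edgeR). *F58D12.3* had sperm shares of 52.9% and 55.0% in M+P- libraries, between the 43.9% and 58.7% of M+P+ libraries, while its H3K36me3 was higher by 1.49 ± 0.18 (adjusted p = 0.0018 in edgeR).

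**Figure D5:**
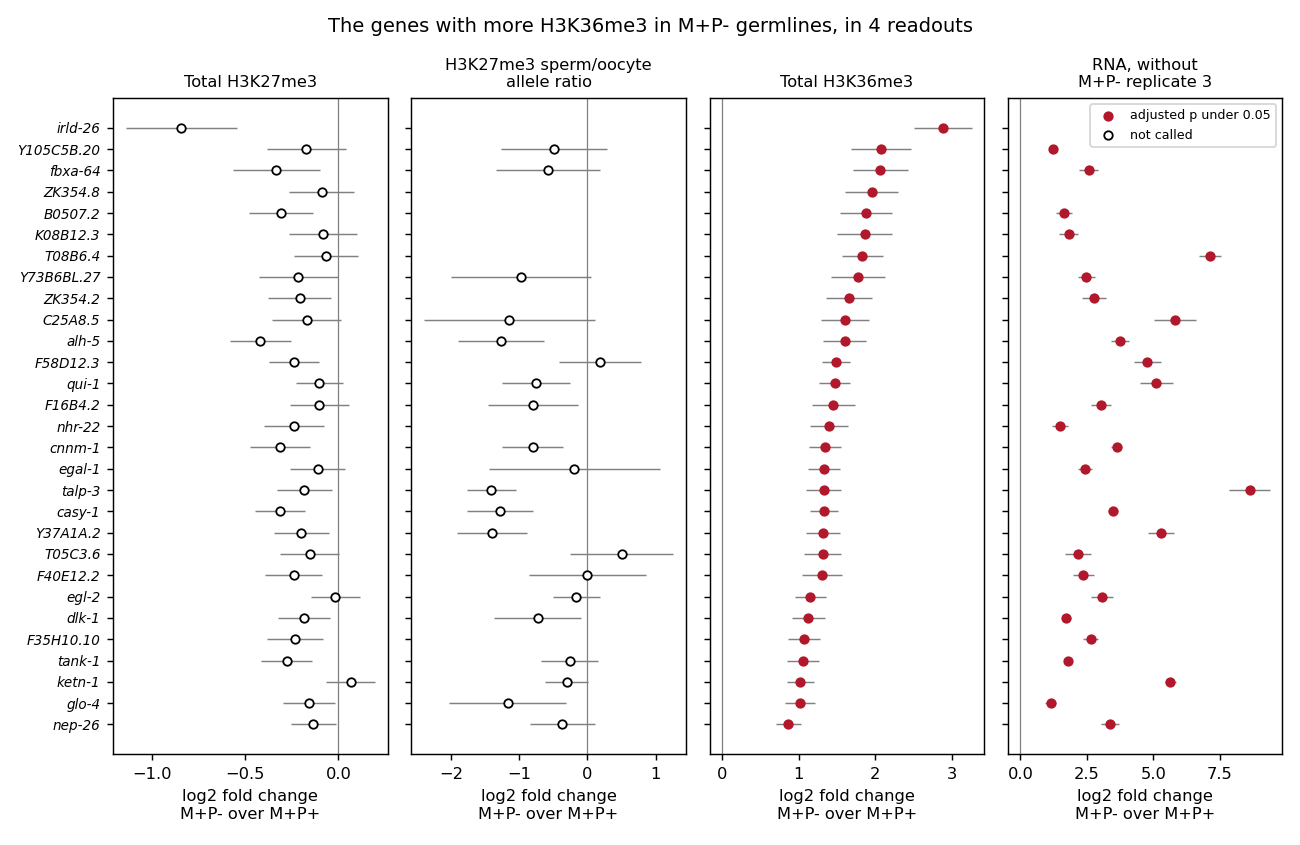
Log2 fold changes (M+P- over M+P+, bars are SE) of total H3K27me3, of the H3K27me3 sperm/oocyte ratio, of H3K36me3 and of RNA for the 29 genes with more H3K36me3 in M+P- germlines; filled points passed an adjusted p of 0.05 in edgeR. Total H3K27me3 is below 0 at 28 of 29 genes with no call, while 27 of 29 are also called higher in RNA without M+P- replicate 3.

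RNA of the second-cross germlines was set beside the mark. With all 6 libraries edgeR called 0 of 7983 genes (294 at an unadjusted p under 0.05) and DESeq2 called 128 higher and 52 lower. RNA library M+P- replicate 3 stood apart, with 9210 genes detected against 12481 to 13766 in the others and no count of the synaptonemal gene *syp-1*. Without it, 182 of 8326 genes (2.19%) rose and 81 (0.973%) fell in M+P- germlines. In bulk samples, fewer cells of a type and less RNA per cell cannot be told apart. The summed intestinal markers were 526 and 886 CPM in M+P- libraries 1 and 2, against 202, 440 and 116 CPM in M+P+ libraries, mostly the yolk gene *vit-2*, and they were 0.46 CPM in M+P- replicate 3. All 4 intestinal markers had counts in each of the other 5 libraries, with the regulator *elt-2* at 0.111 to 0.379 CPM. Muscle markers summed to 23.0 and 33.0 CPM in M+P- libraries 1 and 2, against 12.4, 21.9 and 10.7 CPM in M+P+ libraries. Somatic gonad markers, of the tissue that encloses the germ cells, summed to 7.02, 5.44 and 6.09 CPM in the 3 M+P- libraries, against 3.74, 3.33 and 2.44 CPM in M+P+ libraries. These sums did not overlap, but only *lim-7* kept the groups apart. *lag-2* had 0.78, 0.253 and 0.23 CPM in M+P- libraries, against 0.909, 0.594 and 0.333 CPM in M+P+ libraries. *ceh-18* had 1.43, 0.632 and 0 CPM in M+P- libraries, against 0.606, 0.238 and 0.555 CPM in M+P+ libraries. The part of other tissues in the RNA calls was not tested.

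Of the 182 genes with higher RNA 5 are X-linked. Total H3K27me3 was below 0 on the log2 scale at 150 of the 177 tested (84.7%, median -0.14), beside 49.2% of all genes and 53.3% of autosomal genes. At 81 genes with lower RNA it was below 0 at 8 (9.88%, median 0.13), and 55 of those 81 genes are X-linked. Of all X-linked genes 24.0% were below 0, with a median of 0.10. Over 125 genes of the first set with allele reads, the H3K27me3 sperm share was 39.6% and 46.6% in M+P- libraries, against 51.6% and 51.1% in M+P+ libraries. Both M+P- libraries were below both M+P+ libraries at 44 (35.2%), beside 22.7% of all genes and 24.5% of autosomal genes. They were below M+P+ replicate 2 at 73 (58.4%), beside 42.5% of all genes and 43.8% of autosomal genes. Over 61 genes of the second set the sperm share was 41.5% and 45.8% in M+P- libraries, against 42.6% and 45.1% in M+P+ libraries. Of these 61 genes, X-linked and autosomal, 7 (11.5%) were below both, beside 11.9% of X-linked, 24.5% of autosomal and 22.7% of all genes. Below replicate 2 were 20 (32.8%), beside 35.0% of X-linked, 43.8% of autosomal and 42.5% of all genes. Of the 29 H3K36me3 genes 27 were tested in this RNA fit. All 27 (93.1% of the 29) were among the 182 with higher RNA, of which they made up 14.8%. Of the 150 genes of the first-cross set 95 were tested in this RNA fit. That set shared 26 genes (17.3% of the 150) with the 182 (14.3%). Over all 8326 genes tested the part with higher RNA was 2.19%. RNA reads of the 182 genes came from the sperm allele at 81.5% and 83.4% in M+P- libraries 1 and 2, against 63.7%, 67% and 61.8% in M+P+ libraries, on 352 to 971 allele reads a library. All genes had RNA sperm shares of 52.1% and 53.0% in M+P- libraries, against 51.4%, 52.1% and 52.0% in M+P+ libraries. The 182 genes were chosen by their total RNA in these same RNA libraries, so their RNA allele shares are a description.

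Genes with higher RNA varied in their H3K27me3. *unc-44*, the ankyrin gene of neurons, had 764 and 662 CPM of H3K27me3 in M+P- libraries, against 728 and 670 CPM in M+P+ libraries, and 74.2 and 55.6 CPM of RNA in M+P- libraries 1 and 2, against 8.58, 12 and 8.66 CPM in M+P+ libraries. Its H3K27me3 sperm share was 41.1% and 42.9% in M+P- libraries, against 46.6% and 54% in M+P+ libraries. *tyr-6*, a tyrosinase gene, had a sperm share of 33.3% and 30.4% in M+P- libraries, against 63.1% and 65.5% in M+P+ libraries, with 115 and 118 CPM in total in M+P- libraries, against 122 and 128 CPM in M+P+ libraries. *unc-31*, needed for release of dense-core vesicles, had sperm shares of 40.4% and 43.1% in M+P- libraries, against 51.9% and 57.6% in M+P+ libraries, and total H3K27me3 of 227 and 250 CPM in M+P- libraries, against 275 and 282 CPM in M+P+ libraries. At *suro-1* the sperm allele held 13.2% and 22.2% in M+P- libraries, against 58.7% and 51.3% in M+P+ libraries, on 39 to 104 reads. In *tyr-6*, *unc-31* and *suro-1* the groups overlapped neither in the total nor in the sperm share, and no H3K27me3 difference was called.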

How the data were processed

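CUT&RUN libraries of H3K27me3 in second-cross F1 germlines (2 M+P-, 2 M+P+) were analysed with the first-cross H3K27me3, the second-cross H3K36me3 and the second-cross RNA libraries beside them. The authors deposited raw counts per gene and, per the file headers, separate counts for each parental allele (oocyte, sperm). Reads were trimmed to equal length where needed and mapped to ce10, per the design text in the labels. Per the submitters' processing notes, which state no roles, the tools were HTSeq, DESeq, DESeq2 1.22.2, Bowtie2 2.3.5.1 and TopHat2 2.1.1. The sources used here do not say whether exons or whole genes were counted or whether strand was used, so overlapping, antisense and near-identical genes are uncertain. The score values per gene of *him-8* male germlines are z-scores, as deposited by the authors; they served only to order genes. The number of unmatched columns of per-sample values was 0.

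Gene names, chromosomes and gene order came from a RefSeq table of assembly WBcel235, which matched 44256 of 45624 genes of the CUT&RUN table; no coordinates are given, since the build differs.

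Counts were tested with edgeR 4.0.16 (TMM, filterByExpr, quasi-likelihood F-test, R 4.3.3), with Benjamini-Hochberg adjustment over all genes tested and a threshold of 0.05. The allele test asked whether the sperm-to-oocyte ratio depended on history, blocked by library, at genes averaging 10 or more allele reads. DESeq2 1.42.0 was an alternative, as were other scalings, filters, a replicate block and leaving out each library. CPM are TMM-scaled. Scripts were tested on simulated data. Shares were compared by exact permutation tests; 95% Wilson intervals and low counts cover counting error only, and the widest interval of a chromosome's H3K27me3 share in the second cross was 50.2% to 50.9%. Genes named were the 6 of lowest unadjusted p in each direction, with a gene symbol, a mean of at least 100 counts or 40 allele reads and no overlap of groups; the methylation machinery, Hox genes, loci of the crosses, genes called for H3K36me3, and the 12 genes of lowest p in the first-cross allele set and in the higher-RNA set were added. The members and gene lists were chosen with earlier results of these data known. Groups with the same replicate number deviated together only weakly (r = 0.218 for H3K27me3), and numbers were not taken as pairing. With 2 libraries a group, deviations from the group mean mirror each other, so this r is a single estimate.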

Additional observations from a re-analysis of the deposited data

How the results depend on the processing

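The difference in sperm share of H3K27me3 reads over all chromosomes (-3.28 points) was negative under every alternative run. It was -3.21 points for genes with at least 40 allele reads and -4.35 points for autosomes, which reuse most of the same reads. Over both crosses it was -4.10 points, and -4.58 points over both without second-cross M+P+ replicate 1. Without each library in turn it ran from -2.16 to -4.40 points. As the groups did not overlap, leaving out a library could not change its direction. For total H3K27me3, the fit with a replicate block called 6 genes where the fit without it called 0, and leaving out each library gave 0 to 180. For the allele ratio, leaving out each library gave 0 to 202 calls and both crosses in 1 fit gave 13; the replicate block changed no call there. For the difference between crosses, the replicate block gave 3 calls and leaving out each library 0. For H3K36me3, calls numbered 118 in DESeq2, 108 with no filter on low counts and 1137 with the replicate block, and 8 to 267 without each library. For RNA, DESeq2 called 180 genes and leaving out each library gave 0 to 263, with 263 when M+P- replicate 3 was left out; the replicate block gave 0. Where a library was left out, the lone sample of its group was assumed to vary like the other group. The cause of these differences was not tested. Same-numbered libraries had correlated deviations (r = 0.218 for H3K27me3, 0.212 for H3K36me3, 0.0687 to 0.211 for RNA). This is a hint from a single estimate for each mark and from 3 numbers for RNA, and not from the design. The 24 genes named by rule and the 29 with higher H3K36me3 changed sign under no alternative run. That outcome was largely fixed by their choice, since the rule required no overlap of groups and the 29 were called in the same libraries. It is thus no measure of how stable these genes are. Of other H3K27me3 values described, 129 of 1357 totals (in 49 of 97 genes) and 82 of 819 allele ratios (in 34 of 77 genes) had the other sign under some alternative. Shares of genes with fewer than 100 allele reads are limited by depth. The percentages of all, autosomal or X-linked genes set beside lists and sets of genes were not matched for allele reads per gene.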
